A study of Rattus norvegicus with 24 samples.

Results

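The neuropeptides PACAP and VIP and their receptors were followed in 2 brain regions of the rat after liver surgery and electroacupuncture. The members were the rows of the gene table with the symbols Adcyap1, Vip, Adcyap1r1, Vipr1 and Vipr2. Of these 5 symbols 4 were found among 35032 genes, and Vipr1 is not analysed here. The rule goes by symbol and uses no measured value, but the genes were picked with earlier results of these data known.

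PACAP, encoded by Adcyap1, and VIP, encoded by Vip, are related peptides of the secretin family. PACAP binds the PAC1 receptor (Adcyap1r1) with high affinity, whereas both peptides bind the VPAC receptors, of which VPAC2 is encoded by Vipr2. The receptors act mainly through Gs, adenylyl cyclase and cyclic AMP, and PAC1 can also signal through Gq and phospholipase C. PACAP is known as a regulator of stress responses in the hypothalamus and extended amygdala, VIP as a marker of a class of cortical interneurons and of neurons of the suprachiasmatic nucleus, and VPAC2 as an abundant receptor of the suprachiasmatic nucleus and thalamus.

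Strand-specific mRNA libraries were made from male Sprague-Dawley rats, by the study's methods 7 weeks old when purchased and then adapted for 1 week before the experiment. The methods name 12 rats for the 24 libraries. They also state that brain samples came from different animals of 1 batch, because a rat gave little tissue, without saying which samples. No library is tied to a rat in the labels, and the fits of both regions treated PVN and CEA libraries as independent. The tissue was the hypothalamic paraventricular nucleus (PVN) or the amygdala's central nucleus (CEA). The 24 libraries formed 8 groups of 3. Normal control rats (NC) were not operated and had no sham operation, HT rats had part of the liver removed under isoflurane, EA rats had the same operation with needles and current at the Zusanli and Sanyinjiao points before and right after it, and SEA rats had the operation and the needles without current. All rats were restrained, and tissue was taken a day after the last stimulation. Thus HT against NC holds anaesthesia and laparotomy together with hepatectomy, and the EA and SEA groups were both operated. For its co-expression network the study left out 1 CEA EA set because of very large differences, without naming it. All 3 CEA EA libraries are used here.

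Total counts per library ran from 13152772 to 18607032. The tissue labels were checked with marker lists. All 6 PVN neuroendocrine markers were lower in the CEA than in the PVN over the 4 treatments, and all 6 of the central amygdala and striatal markers found were higher, by edgeR's quasi-likelihood test with Benjamini-Hochberg adjustment. The CEA libraries varied in other markers. Summed thalamus markers ran from 72.1 to 555 counts scaled to a common library total (CPM) in the CEA and from 91.8 to 327 CPM in the PVN. Summed choroid plexus markers reached 1058, 375 and 1753 CPM in CEA NC replicate 2, EA replicate 1 and SEA replicate 2, and were 7.34 to 23.7 CPM in the other CEA libraries. Summed oligodendrocyte markers were higher in every CEA library, at 22888 to 39228 CPM, than in any PVN library, at 8717 to 14779 CPM. The part of such cells in the regional differences of the members was not tested.

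In the gene table Adcyap1 (ENSRNOG00000049882) lies on the minus strand of chromosome 9 from 121706979 to 121725716, and Vip (ENSRNOG00000018808) on the plus strand of chromosome 1 from 42169501 to 42177582. Adcyap1r1 (ENSRNOG00000012098) lies on the plus strand of chromosome 4 from 85662892 to 85711696, and Vipr2 (ENSRNOG00000004317) on the plus strand of chromosome 6 from 143938040 to 144008072. All 4 were annotated as protein coding. The table names no build.

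Because Vip and Vipr2 rose and fell together among the CEA libraries, as described further on, their promoters are shown. They are the 250 bases before the start site on the gene's strand, from RefSeq on GRCr8. The Vip stretch is chr1:44470230-44470479 and the Vipr2 stretch is chr6:143144273-143144522, both on the plus strand. Capitals mark matches to 3 motifs searched on both strands: the cyclic AMP response element core TGACGTC, the TATA box TATAAA and the GC box GGGCGG. No match overlapped another in these stretches.
Vip: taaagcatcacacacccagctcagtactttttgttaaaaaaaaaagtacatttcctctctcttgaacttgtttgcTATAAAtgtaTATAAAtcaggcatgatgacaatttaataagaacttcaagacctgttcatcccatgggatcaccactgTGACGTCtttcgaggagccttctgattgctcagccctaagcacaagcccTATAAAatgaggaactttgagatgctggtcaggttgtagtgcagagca
Vipr2: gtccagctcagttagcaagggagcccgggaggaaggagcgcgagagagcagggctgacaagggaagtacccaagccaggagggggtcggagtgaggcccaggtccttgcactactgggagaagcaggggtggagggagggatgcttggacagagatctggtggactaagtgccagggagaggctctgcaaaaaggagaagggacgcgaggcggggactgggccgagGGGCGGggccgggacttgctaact
The Vip promoter held 1 cyclic AMP response element core, whose first base lay at -97 from the start site, and 3 TATA matches at -175, -165 and -48. The Vipr2 promoter held 1 GC box at -24 and neither of the other motifs. Of the 33469 RefSeq promoters, counted over windows of 300 bases that end 50 bases after the start site, 3.22% held the response element core, 14.2% the TATA box and 33.1% the GC box. The 2 stretches thus had no match to any of the 3 motifs in common, which says only that these letters were not shared.

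Levels of different genes were compared per length, as CPM per kilobase of gene length (RPKM). In the PVN, Adcyap1r1 was the highest at 62.4 ± 6.62 RPKM (SD, n = 12 libraries), followed by Adcyap1 at 33.0 ± 3.43, Vip at 4.77 ± 1.27 and Vipr2 at 1.97 ± 0.212 RPKM. Neighbours in that order did not overlap in any library of the PVN. In the CEA the order was Adcyap1r1 at 37.3 ± 3.41, Vip at 17.1 ± 11.9, Vipr2 at 3.53 ± 2.31 and Adcyap1 at 1.53 ± 0.682 RPKM. There each gene overlapped its neighbour in the order across libraries, and Vip ranged from 1.18 to 39.2 RPKM. The receptor PAC1 therefore had the highest mean transcript level in both regions, and the ligand that ranked next was PACAP in the PVN and VIP in the CEA.

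**Figure D1:**
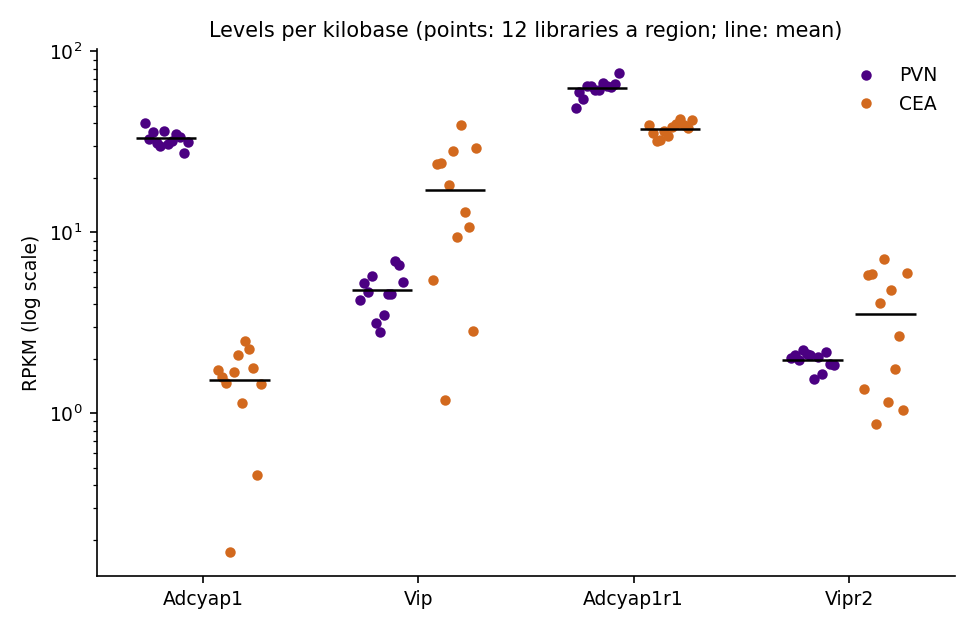
RPKM on a log axis for the 4 genes in the PVN and the CEA, with a point for each of the 12 libraries of a region and a line at the mean. Adcyap1 fell from a mean of 33.0 RPKM in the PVN to 1.53 RPKM in the CEA, and the CEA points of Vip, Vipr2 and Adcyap1 were spread more widely than their PVN points.

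PACAP transcripts were far higher in the PVN samples, at a level 22.3-fold above that in the CEA, and every PVN library lay above every CEA library. The PVN samples also held markers of the ventromedial hypothalamus, summed at 111 to 148 CPM against 4.56 to 23.9 CPM in the CEA. That sum was mostly Dlk1, with a median of 112 CPM in the PVN. The part of such neighbouring tissue in the Adcyap1 difference was not tested. Adcyap1 stood at 93.3, 76.0 and 83.2 CPM in the PVN NC libraries and at 72.4, 69.7 and 83.8 CPM in the HT libraries. It stood at 70.9, 73.9 and 81.0 CPM in the PVN EA libraries and at 78.2, 63.2 and 73.0 CPM in the SEA libraries. These PVN values differed by at most 1.48-fold. In the CEA, Adcyap1 was 4.0, 3.67 and 3.41 CPM in NC and 0.397, 3.89 and 4.87 CPM in HT. It was 2.63, 5.81 and 5.27 CPM in CEA EA and 4.11, 1.06 and 3.36 CPM in CEA SEA. The 2 lowest libraries were CEA HT replicate 1, with 6 counts, and CEA SEA replicate 2, and the others held up to 92 counts. The log2 fold change of the CEA against the PVN was -4.52 (SE 0.14) in unoperated rats, -4.61 (SE 0.61) after HT, -4.03 (SE 0.23) under EA and -4.66 (SE 0.38) under SEA. Adjusted p-values of edgeR's quasi-likelihood test were 3.70e-05, 0.00271, 2.44e-05 and 9.22e-04 in that order.

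The same regional comparison called many genes. Of all genes tested, 26.3% passed the threshold among NC rats, 21.1% among HT, 27.8% among EA and 30.4% among SEA rats, so that a call by itself sets no gene apart. Leaving out 1 library moved these shares to between 14.2% (without CEA NC replicate 3) and 36% (without PVN NC replicate 2) among NC and 8.21% (without PVN HT replicate 1) and 29.5% (without CEA HT replicate 2) among HT. They moved to between 17.7% (without PVN EA replicate 1) and 36.5% (without CEA EA replicate 2) among EA and 16.3% (without PVN SEA replicate 1) and 34% (without CEA SEA replicate 3) among SEA. In a fit of all 24 libraries, added after the values were seen, 56.5% of 17768 genes were called. There Adcyap1 differed by -4.48 (95% interval -4.95 to -4.01, edgeR adjusted p = 5.06e-12). In bulk tissue, fewer cells that express a gene and less RNA of it per cell cannot be told apart.

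VIP transcripts had the opposite regional direction, with wide scatter. Vip stood at 7.76, 9.70 and 8.62 CPM in the PVN NC libraries and at 10.1, 44.3 and 44.7 CPM in the CEA NC libraries. In HT it was 10.5, 5.80 and 5.22 CPM in the PVN against 2.18, 33.5 and 52.2 CPM in the CEA. The PVN and CEA ranges did not overlap in NC and did in HT, where CEA replicate 1 was the lowest of all 24 libraries. In EA the values were 6.43, 8.42 and 8.41 CPM in the PVN and 17.4, 72.4 and 23.8 CPM in the CEA. In SEA they were 12.8, 12.2 and 9.87 CPM in the PVN and 19.8, 5.24 and 54.0 CPM in the CEA. The regions were apart in EA and overlapped in SEA through CEA replicate 2. The log2 fold change of the CEA against the PVN was 1.91 (SE 0.52, edgeR adjusted p = 0.0370) in NC and 2.28 (SE 0.60, adjusted p = 0.0402) in EA. In HT it was 2.02 (SE 0.89, adjusted p = 0.148) and in SEA 1.17 (SE 0.73, adjusted p = 0.276), neither of which passed.

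Over all 24 libraries Vip was higher in the CEA by 1.82 on the log2 scale (95% interval 0.94 to 2.70, edgeR adjusted p = 0.00112), or 3.54-fold. The NC call was lost in a fit without CEA replicate 2 (edgeR adjusted p = 0.115) or 3 (0.110) or without any single PVN replicate (0.0671 to 0.118), and the EA call without CEA replicate 3 (0.0551) or PVN replicate 1 (0.0996) or 2 (0.0944). Without CEA HT replicate 1 the HT difference became 2.57 (edgeR adjusted p = 0.00484), and without CEA SEA replicate 2 the SEA difference became 1.66 (adjusted p = 0.0430).

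**Figure D2:**
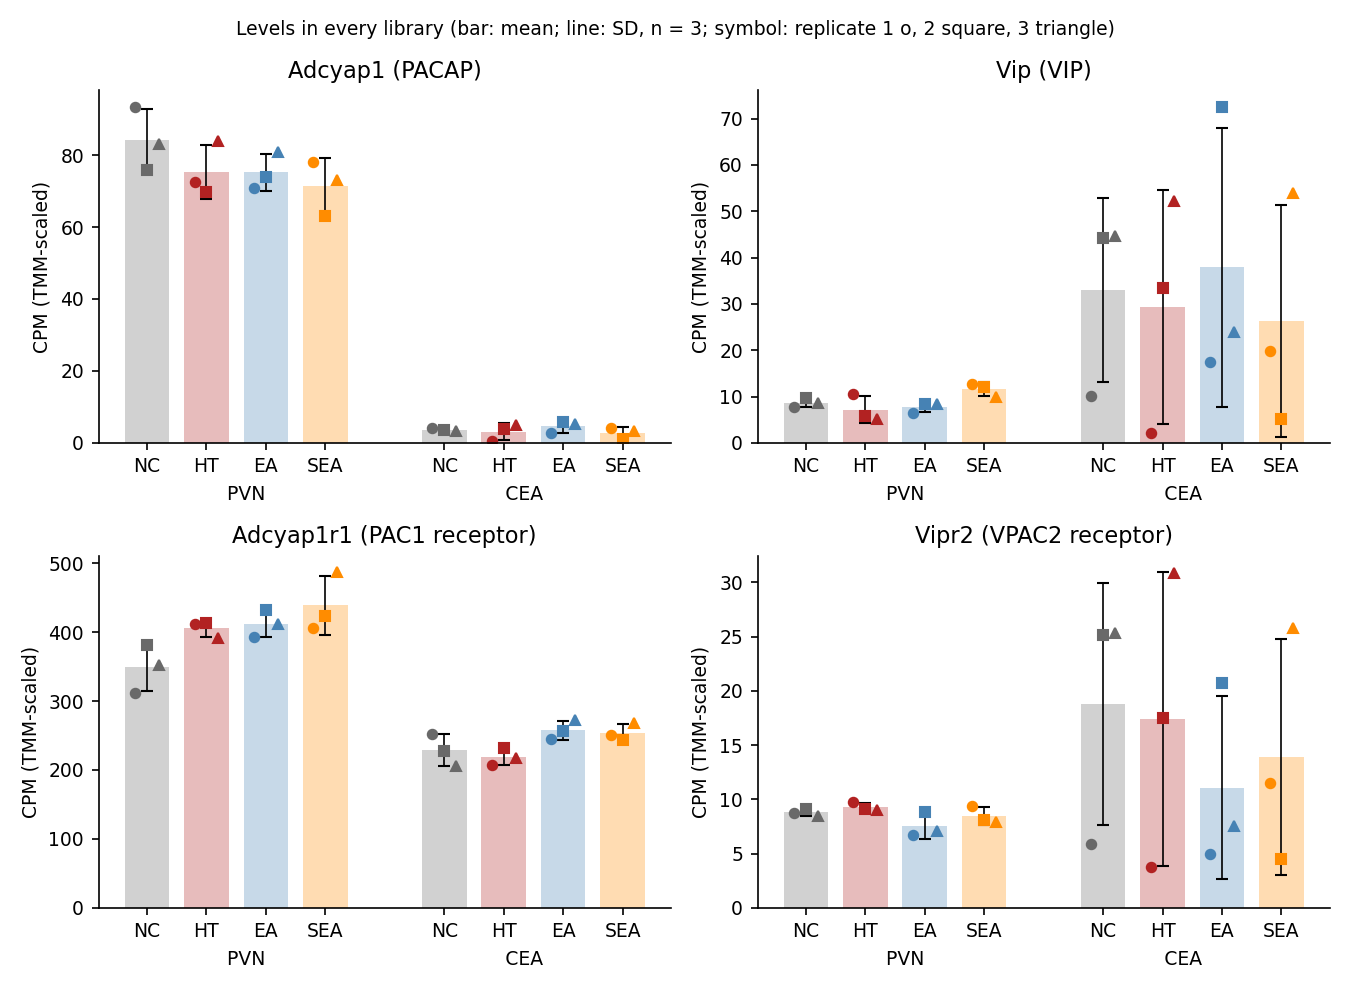
CPM of each gene in every library by region and treatment, with bars at the mean, lines for the SD (n = 3) and a symbol for each replicate. Adcyap1 and Adcyap1r1 were lower in the CEA than in the PVN in every library, whereas CEA Vip ran from 2.18 to 72.4 CPM.

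The transcript of the PAC1 receptor was lower in the CEA in all treatments, by a far smaller factor than that of its ligand. Adcyap1r1 stood at 312, 381 and 352 CPM in the PVN NC libraries and at 252, 227 and 206 CPM in the CEA NC libraries. In HT it was 412, 413 and 392 CPM in the PVN and 207, 232 and 218 CPM in the CEA. In EA it was 393, 431 and 412 CPM in the PVN and 244, 256 and 272 CPM in the CEA. In SEA it was 406, 423 and 487 CPM in the PVN and 250, 243 and 267 CPM in the CEA. No CEA library reached the lowest PVN library. On the log2 scale the CEA differed from the PVN by -0.62 (SE 0.13, edgeR adjusted p = 0.0119) in NC rats and -0.89 (SE 0.11, adjusted p = 0.00221) in HT rats. The difference was -0.68 (SE 0.09, edgeR adjusted p = 8.22e-04) under EA and -0.79 (SE 0.09, adjusted p = 0.00130) under SEA. Without CEA NC replicate 3 the NC call was lost, at -0.55 (edgeR adjusted p = 0.0532). Over all 24 libraries the difference was -0.77 (95% interval -0.87 to -0.67, adjusted p = 4.13e-11), or 1.70-fold.

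The VPAC2 receptor transcript was even in the PVN and uneven in the CEA. Vipr2 lay between 6.68 and 9.71 CPM in all 12 PVN libraries, with a median of 8.81 CPM. In the CEA it was 5.91, 25.2 and 25.3 CPM in NC and 3.77, 17.5 and 30.9 CPM in HT. It was 4.96, 20.7 and 7.56 CPM in CEA EA and 11.5, 4.49 and 25.8 CPM in CEA SEA. Each CEA group thus had at least 1 library below and 1 above the whole PVN range. The log2 difference of the CEA from the PVN was 1.08 (SE 0.49, edgeR adjusted p = 0.153) in NC rats and 0.90 (SE 0.61, adjusted p = 0.327) in HT rats. It was 0.55 (SE 0.50, edgeR adjusted p = 0.465) under EA and 0.71 (SE 0.56, adjusted p = 0.392) under SEA. Over all 24 libraries it was 0.78 (95% interval 0.11 to 1.46, adjusted p = 0.0462), a call that was lost in 19 of the 24 fits that left out 1 library (0.58 to 0.82 in those fits) and with the replicate number as a block (0.66, edgeR adjusted p = 0.0851). Without CEA NC replicate 1 the NC difference became 1.51 (edgeR adjusted p = 0.00115). Without CEA HT replicate 1 the HT difference became 1.37 (adjusted p = 0.0128), and without CEA SEA replicate 2 the SEA difference became 1.13 (adjusted p = 0.0480).

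With the 3 CEA libraries rich in choroid plexus markers left out, the differences over all treatments were -4.30 for Adcyap1, 1.97 for Vip, -0.74 for Adcyap1r1 and 0.92 for Vipr2, and all 4 passed edgeR's test (adjusted p from 1.78e-10 to 0.0207), as did 51.3% of all genes in that fit.

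**Figure D3:**
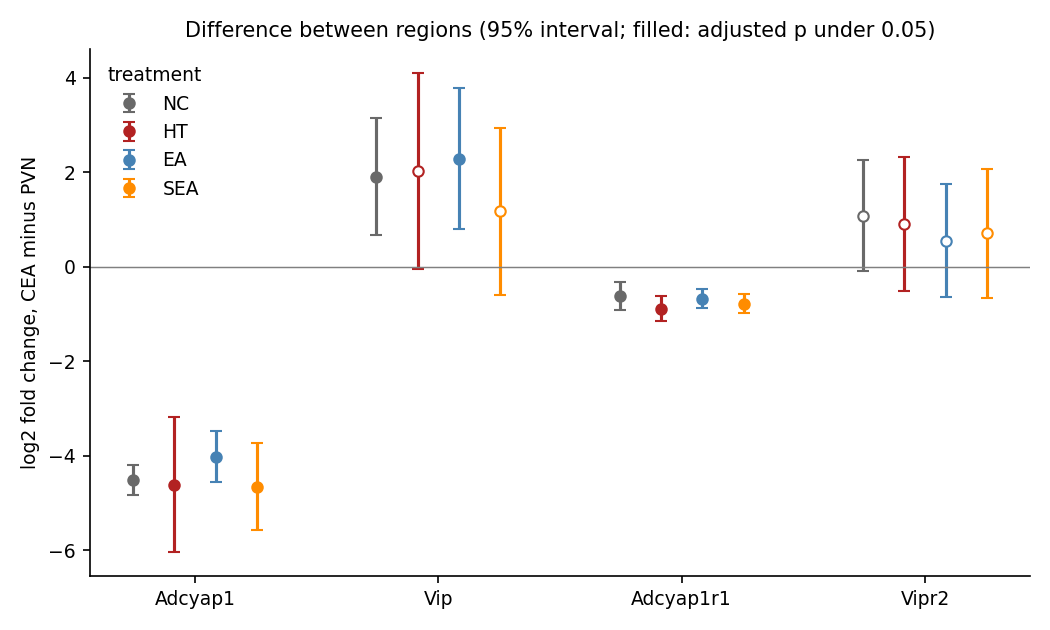
Log2 fold change of the CEA against the PVN for each gene and treatment, with 95% intervals and filled points where edgeR's adjusted p was under 0.05. Adcyap1 lay between -4.66 and -4.03 and Adcyap1r1 between -0.89 and -0.62, whereas the intervals of Vipr2 crossed 0 in all 4 treatments.

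The spread of the members inside the CEA was large for 3 of the 4 genes. Over the 12 CEA libraries the SD of log2 CPM was 1.5 for Vip, 1.12 for Vipr2, 1.01 for Adcyap1 and 0.13 for Adcyap1r1. The median over 15598 genes of the CEA was 0.26, and the 4 members ranked at the percentiles 99.3, 98.1, 97.6 and 10.9. In the PVN the SD was 0.39 for Vip, 0.16 for Vipr2, 0.15 for Adcyap1 and 0.16 for Adcyap1r1, against a median of 0.19 over 15693 genes.

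In the CEA the ligand Vip and the receptor Vipr2 varied together. HT replicate 1 was the lowest library for both, and SEA replicate 2 was next to lowest for both. Pearson's r of log2 CPM was 0.90 over 12 libraries (permutation p = 1e-05, the smallest that 100000 resamples can give, adjusted p = 1.2e-04 over the 12 pairs of members in both regions), and Spearman's rho was 0.91 (permutation p = 1.3e-04, adjusted p = 0.00156). Without the 2 libraries farthest from the median of Vip, r was 0.89. On deviations from the 4 treatment means r was 0.98. In the PVN the same pair had r of 0.16 (permutation p = 0.616, adjusted p = 0.694) and rho of 0.21 (permutation p = 0.515, adjusted p = 0.773). The difference between the 2 regions in r was not tested.

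PACAP followed the pair only through its lowest libraries. Adcyap1 and Vip in the CEA had r of 0.85 (permutation p = 0.00172, adjusted p = 0.0103) but rho of 0.52 (permutation p = 0.0846, adjusted p = 0.339), and r was 0.30 without the 2 libraries farthest from the median. Adcyap1 and Vipr2 had r of 0.64 (permutation p = 0.00933, adjusted p = 0.0373), rho of 0.43 (permutation p = 0.169, adjusted p = 0.406) and r of 0.21 without those 2 libraries. Both relations rested on CEA HT replicate 1 and SEA replicate 2. In the PVN, Adcyap1 and its receptor Adcyap1r1 were inversely related, with r of -0.69 (permutation p = 0.0146, adjusted p = 0.0439) and rho of -0.65 (permutation p = 0.0265, adjusted p = 0.159). That relation weakened to -0.48 without 2 libraries and to -0.44 on deviations from the treatment means. The remaining 8 pairs had adjusted p-values of 0.377 or more by r.

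Marker sums of neighbouring tissue moved with Vip and Vipr2 in the CEA. The sum of the thalamus markers Tcf7l2, Lef1, Plekhg1 and Ntng1 was 112, 472 and 517 CPM in CEA NC and 72.1, 237 and 509 CPM in HT. It was 142, 523 and 234 CPM in CEA EA and 203, 88.4 and 555 CPM in SEA. The libraries with the lowest sums, HT replicate 1, SEA replicate 2 and NC replicate 1, were also the 3 lowest for Vip. Over the 12 libraries the thalamus sum had r of 0.95 (permutation p = 1e-05, adjusted p = 3.47e-04 over 104 relations) and rho of 0.99 (permutation p = 1e-05, adjusted p = 5.2e-04) with Vip, and r was 0.96 without 2 libraries. With Vipr2 it had r of 0.96 (permutation p = 2e-05, adjusted p = 5.2e-04) and rho of 0.92 (permutation p = 1e-04, adjusted p = 0.00229), and r was 0.93 without 2 libraries. These relations were chosen after the values were seen, and the part of thalamic tissue in the levels of Vip and Vipr2 was not tested.

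Other lists moved as well. The summed cortical and basolateral excitatory markers, 9.06 to 347 CPM in the CEA, had r of 0.87 with Vipr2 (permutation p = 1.2e-04, adjusted p = 0.00250, rho 0.91 with permutation p = 1.1e-04) and of 0.78 with Vip (permutation p = 0.00262, adjusted p = 0.0248, rho 0.80 with permutation p = 0.00249). Without 2 libraries these were 0.82 and 0.58. Summed suprachiasmatic markers had r of 0.96 with Vip and 0.95 with Vipr2 (permutation p = 1e-05 for each, adjusted p = 3.47e-04), with rho of 0.98 and 0.96 (permutation p = 1e-05 and 2e-05) and r of 0.98 and 0.92 without 2 libraries. That sum consisted mostly of Rgs16, with a median of 73.0 CPM in the CEA, and Rorb, with 15.5 CPM. Six6, a defining gene of the suprachiasmatic nucleus, was at 0 in 9 of the 12 CEA libraries, and Lhx1 had a median of 0.295 CPM there against 7.31 CPM in the PVN. The central amygdala and striatal markers went the other way with Vip, at r of -0.78 (permutation p = 0.00244, adjusted p = 0.0248) and rho of -0.66 (permutation p = 0.0238, adjusted p = 0.165), and r was -0.71 without 2 libraries. So did the microglia markers, at r of -0.74 (permutation p = 0.00481, adjusted p = 0.0357) and rho of -0.71 (permutation p = 0.0117, adjusted p = 0.110), and r was again -0.71 without 2 libraries. Adcyap1 in the CEA had r of 0.73 with the suprachiasmatic sum (permutation p = 0.00316, adjusted p = 0.0274) and 0.70 with the thalamus sum (permutation p = 0.00378, adjusted p = 0.0302), relations that rested on 2 libraries, since r was 0.31 and 0.25 without them. The 3 markers taken for VIP-type cortical interneurons, Calb2, Htr3a and Prox1, had r of 0.70 with Vip (permutation p = 0.0110, adjusted p = 0.0716), rho of 0.56 (permutation p = 0.0627) and r of 0.27 without 2 libraries.

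**Figure D4:**
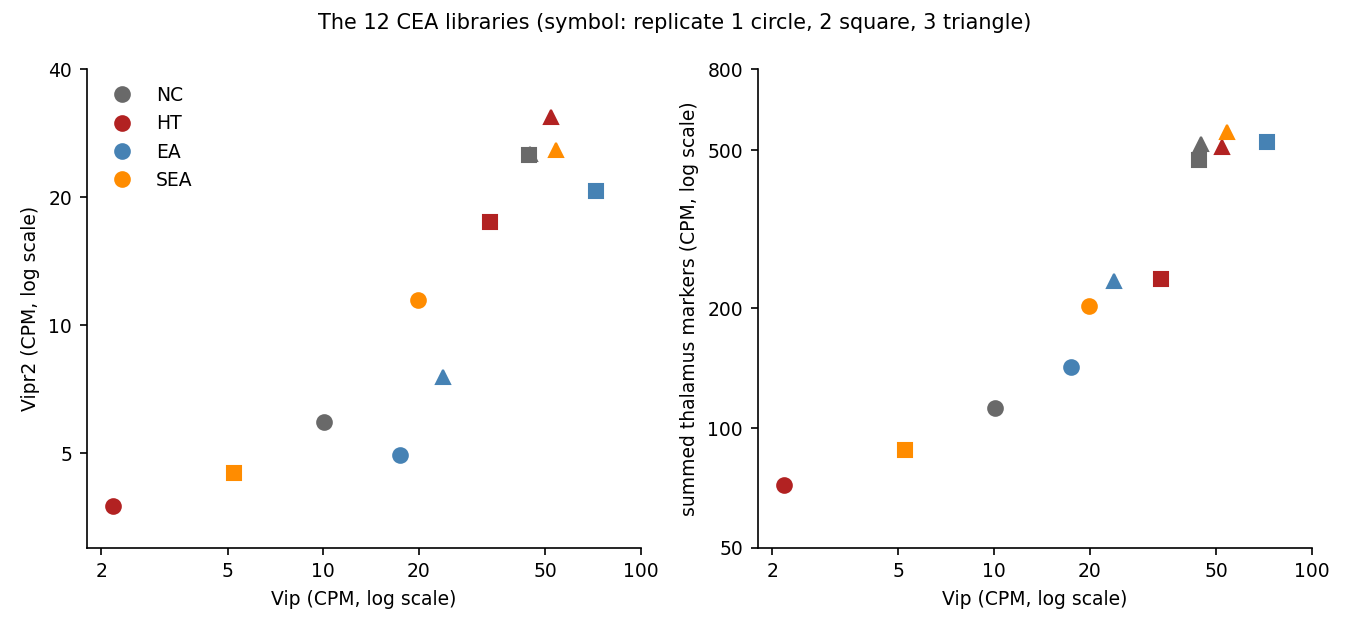
The 12 CEA libraries by Vip level on the horizontal axis, against Vipr2 on the left and the summed CPM of 4 thalamus markers on the right, all in CPM on log axes, with color for treatment and symbol for replicate. Libraries of every treatment were spread along the same line, from HT replicate 1 at 2.18 CPM of Vip to EA replicate 2 at 72.4 CPM.

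In the PVN it was Adcyap1 that went with such marker sums, downward. It had r of -0.81 with the suprachiasmatic sum (permutation p = 0.00206, adjusted p = 0.0248, rho -0.72 with permutation p = 0.0107), and r was -0.73 without 2 libraries. In the PVN too that sum consisted mostly of Rgs16, with a median of 65.8 CPM, and Rorb, with 19.2 CPM. Six6 and Lhx1 had medians of 5.22 and 7.31 CPM there. Adcyap1 had r of -0.80 with the thalamus sum (permutation p = 0.00241, adjusted p = 0.0248, rho -0.71 with permutation p = 0.0130) and of -0.77 with the cortical sum (permutation p = 2e-04, adjusted p = 0.00347, rho -0.81 with permutation p = 0.00228). Without 2 libraries the latter pair were -0.68 and -0.67. PVN NC replicate 1, the library with the most Adcyap1 and the least Adcyap1r1, had the lowest suprachiasmatic, thalamus and cortical sums, 58.7, 91.8 and 4.67 CPM. The part of these markers in the Adcyap1 level was not tested.

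The genes whose log2 CPM followed each member most closely over the 12 libraries of a region are given as a description. For Vip in the CEA they were Ptpn3 (r 0.99), AABR07027407.1 (r 0.98) and Wnt3 (r 0.98), and 177 of 14476 genes had r above 0.9. For Vipr2 in the CEA they were Hcn4 (r 0.98), Rap1gds1 (r 0.98) and Nudt4 (r 0.98), with 195 genes above 0.9. For Adcyap1 in the CEA they were Cd83 (r 0.94, rho 0.80), Barhl2 (r 0.93, rho 0.41) and Kcnj16 (r 0.93, rho 0.61), with 6 genes above 0.9 by r. For Adcyap1r1 in the CEA they were Grin2d (r 0.89), Maged2 (r 0.88) and Tmem132c (r 0.87).

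In the PVN, Adcyap1 was most like Tac1 (r 0.94), the substance P precursor, then Txnl4b (r 0.92) and Ces1d (r 0.90). For Adcyap1r1 the closest named here were Tatdn2 (r 0.95) and Tmem132d (r 0.94), with 52 of 14577 genes above 0.9. For Vip the closest were RGD1560242 (r 0.83), Cklf (r 0.82) and Gstcd (r 0.82), and for Vipr2 they were Riok2 (r 0.90), LOC103689964 (r 0.86) and AABR07007121.1 (r 0.85). Neither had a gene above 0.9 in the PVN. All genes of a library share its depth and tissue make-up.

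Surgery and electroacupuncture were then compared inside each region. None of the 4 genes passed edgeR's test with Benjamini-Hochberg adjustment in any comparison within a region. Few genes of any kind did. In the PVN, 0.012% of all genes were called in HT against NC, 0.216% in EA against HT, 0% in SEA against HT, 0% in EA against SEA and 0.0581% with the 3 operated groups together against NC. At an unadjusted p under 0.05 those 5 comparisons held 1776, 919, 692, 836 and 5062 genes. In the CEA 0% were called in all 5 comparisons. In the same order 616, 523, 501, 312 and 475 genes had an unadjusted p under 0.05. DESeq2 called 28, 91, 21, 24 and 2318 PVN genes and 24, 5, 3, 5 and 11 CEA genes, with Adcyap1r1 in operated against NC PVN as the only member. The PVN counts depended on single libraries. EA against HT called 36 genes with all libraries, 40 without HT replicate 3 and 14 to 20 without any other single library. HT against NC called 2 genes, 3506 without NC replicate 2, 2 without HT replicate 3 and 0 without any other. Operated against NC called 10 genes, 5883 without NC replicate 2, 0 without NC replicate 3 and 1 to 8 without any other. EA against SEA called up to 29 genes (without SEA replicate 3) and SEA against HT up to 4 (also without SEA replicate 3). In the CEA such fits called at most 1 gene. The HT libraries enter 4 of the 5 comparisons of a region, the one with the operated groups together included, so these share libraries.

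The PAC1 receptor had the smallest adjusted p of the members after surgery in the PVN. Every PVN NC library, 312 to 381 CPM, lay below every operated library, 392 to 487 CPM. With the operated groups together the log2 difference was 0.28 (SE 0.07, 95% interval 0.13 to 0.43, edgeR adjusted p = 0.0748). DESeq2 called it (0.29, adjusted p = 0.00889), and so did edgeR without PVN NC replicate 2 (0.36, adjusted p = 9.87e-04). DESeq2 called 13.5% of all genes in that comparison and edgeR without PVN NC replicate 2 called 33.7%, or 2318 and 5883 genes against 10 with all libraries. Over all alternatives the adjusted p ran from 9.87e-04 to 0.359. For HT alone against NC the difference was 0.24 (SE 0.10, edgeR adjusted p = 0.431), and 0.32 without PVN NC replicate 2 (adjusted p = 0.0180), where 20.7% of all genes were called. EA differed from HT by 0.01 (95% interval -0.11 to 0.12) and from SEA by -0.10 (95% interval -0.25 to 0.05). PVN NC replicate 1, the lowest library, was also the one with the least thalamus and cortical marker signal.

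PACAP itself moved little in the PVN. Adcyap1 was 84.2 ± 8.70 CPM (SD, n = 3) in NC, 75.3 ± 7.48 in HT, 75.3 ± 5.17 in EA and 71.5 ± 7.62 CPM in SEA. Operated against NC differed by -0.17 (95% interval -0.35 to 0.01, edgeR adjusted p = 0.198), and EA against HT by -0.02 (95% interval -0.20 to 0.16). Changes beyond these bounds lie outside the intervals.

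Vip in the PVN was highest under needles without current. Its 3 SEA libraries, 9.87 to 12.8 CPM, lay above the 3 EA libraries, 6.43 to 8.42 CPM. EA against SEA differed by -0.59 (SE 0.15), which did not pass edgeR's adjustment (adjusted p = 0.891, and 0.172 to 1 over the alternatives). SEA against HT differed by 0.69 (SE 0.26, edgeR adjusted p = 0.992), where HT replicate 1, at 10.5 CPM, lay inside the SEA range. EA against HT differed by 0.10 (95% interval -0.49 to 0.68). Vipr2 in the PVN was 9.29 ± 0.362 CPM (SD, n = 3) in HT and 7.53 ± 1.15 CPM in EA, a difference of -0.32 (95% interval -0.63 to 0.00, edgeR adjusted p = 0.905).

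In the CEA the scatter between libraries set wide bounds on the ligands and VPAC2. EA against HT differed by 0.58 for Adcyap1 (95% interval -1.04 to 2.19), by 0.36 for Vip (-1.88 to 2.61) and by -0.66 for Vipr2 (-2.38 to 1.07). HT against NC differed by -0.27 for Adcyap1 (95% interval -1.83 to 1.29), by -0.17 for Vip (-2.38 to 2.03) and by -0.11 for Vipr2 (-1.88 to 1.65). Several of these signs turned when 1 library was left out. Adcyap1r1 was the exception in precision. It was 228 ± 23.3 CPM (SD, n = 3) in NC, 219 ± 12.4 in HT, 258 ± 13.9 in EA and 254 ± 12.5 CPM in SEA. All 3 EA libraries and all 3 SEA libraries lay above all 3 HT libraries, by 0.23 (95% interval -0.10 to 0.56, edgeR adjusted p = 0.932) for EA and 0.20 (-0.10 to 0.50, adjusted p = 0.959) for SEA. The central amygdala and striatal sum ran from 3456 to 4840 CPM in HT, 2208 to 2982 CPM in EA and 2206 to 4961 CPM in SEA. Over all CEA libraries it had r of -0.53 with Adcyap1r1 (permutation p = 0.0789, adjusted p = 0.228) and rho of -0.59 (permutation p = 0.0451, adjusted p = 0.239). Summed PVN neuroendocrine markers in the CEA ran from 35.2 to 176 CPM in HT, 119 to 164 CPM in EA and 63.8 to 179 CPM in SEA. The 5 such markers tested had median log2 differences of 0.79 for EA and 0.71 for SEA against HT, and none was called. Over the 12 CEA libraries their sum had r of 0.84 with Adcyap1r1 (permutation p = 0.00117, adjusted p = 0.0174 over 104 relations), rho of 0.71 (permutation p = 0.0117, adjusted p = 0.110), r of 0.66 without 2 libraries and 0.79 on deviations from the treatment means. In the CEA that sum consisted mostly of Oxt, with a median of 58.3 CPM, Trh, with 31.2 CPM, and Avp, with 23.8 CPM. Sim1 and Otp had medians of 0.309 and 0.567 CPM there, against 13.2 and 27.3 CPM in the PVN. The part of hypothalamic or amygdala tissue in the Adcyap1r1 level was not tested.

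The effect of HT and that of EA against HT did not pass edgeR's test of a difference between the regions for any member, with 0% of all genes called in both interaction tests, in which 2088 and 772 genes had an unadjusted p under 0.05 and DESeq2 called 1 and 49 genes. Without PVN NC replicate 2, 3.97% of genes (700) were called for the HT effect, and without CEA HT replicate 1 or 2, 17 or 8 genes were called for EA against HT. For Adcyap1r1 the HT effect in the CEA minus that in the PVN was -0.32 (95% interval -0.66 to 0.03, edgeR adjusted p = 0.426).

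**Figure D5:**
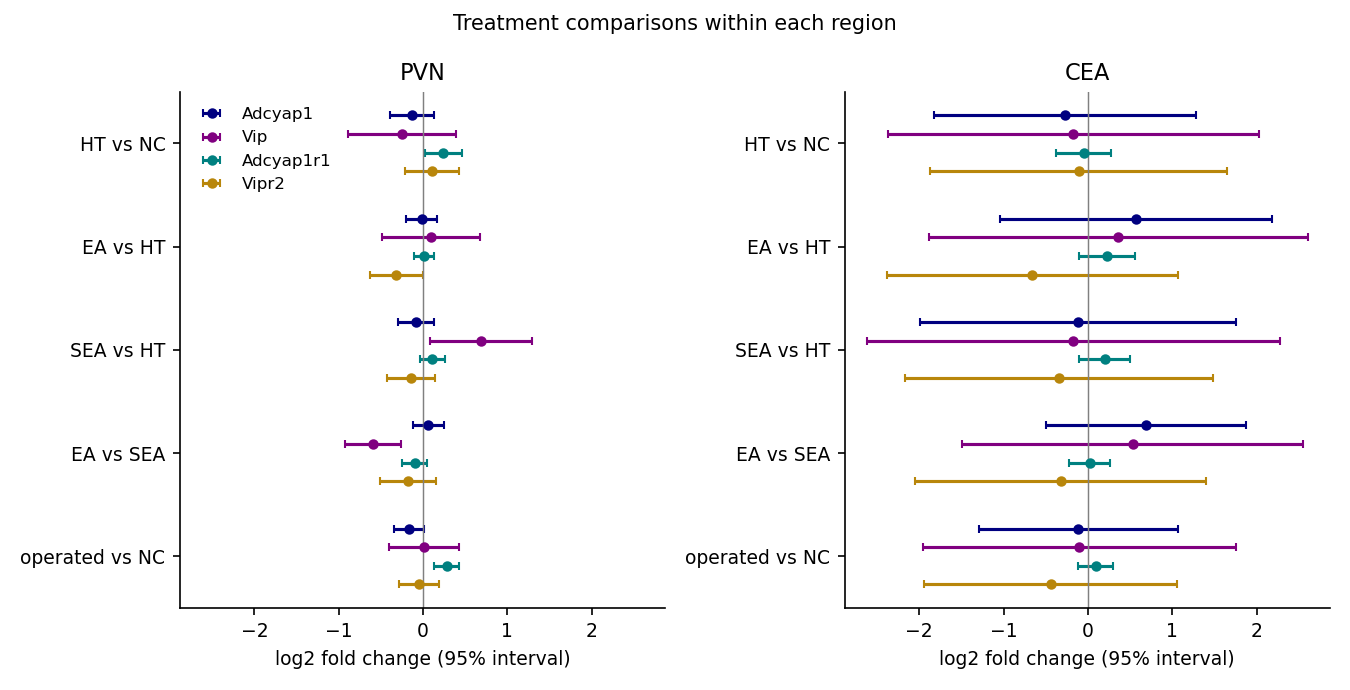
Log2 fold changes with 95% intervals for the 4 genes in 5 comparisons of treatments, with the PVN on the left and the CEA on the right on the same scale. Intervals of Adcyap1, Vip and Vipr2 were several times wider in the CEA than in the PVN, and Adcyap1r1 in the PVN lay above 0 in operated against NC, by 0.28.

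Genes around the peptides differed between the regions in both directions. The genes were named from NC rats, where 2097 genes of all tested were higher in the CEA and 2301 lower (26.3% called). In HT 1840 were higher and 1683 lower (21.1%), under EA 2350 and 2297 (27.8%) and under SEA 2492 and 2549 (30.4%), and the counts of each list are read against these. Among the other secretin family ligands only Ghrh, growth hormone-releasing hormone, was high enough to test of 4 listed, and in NC it was lower in the CEA by -5.03 on the log2 scale (edgeR adjusted p = 5.23e-04). The difference was -3.14 in HT, -3.35 in EA and -3.10 in SEA (adjusted p from 0.00184 to 0.00900). Of 15 related class B receptors and RAMP partners 12 were tested, 2 were higher in the CEA, 4 lower and 6 not called, with a median of -0.54. All genes tested had a median of -0.01 in that comparison. The list's median was -0.07 in HT (3 higher, 3 lower), -0.04 in EA (2 higher, 4 lower) and 0.02 in SEA (2 higher, 5 lower), nearer to 0 than in NC. Named by size, the calcitonin receptor Calcr differed by -4.25, the CRH receptor Crhr2 by -3.18, the parathyroid hormone receptor Pth2r by -1.66 and the CGRP receptor partner Ramp1 by 1.53. In the other treatments Calcr lay between -4.26 and -3.67, Pth2r between -1.60 and -0.88 and Ramp1 between 1.48 and 2.11, all called. Crhr2 was called in EA (-2.20) and SEA (-2.36) and not in HT (-1.41, edgeR adjusted p = 0.111).

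Of 10 genes tested for processing and storing peptides, 5 were lower in the CEA, none higher and 5 not called, with a median of -0.47. In HT 3 were lower and none higher (median -0.11), in EA 5 were lower and 1 higher (-0.29) and in SEA 5 were lower and none higher (-0.23). Secretogranin Scg2 differed by -2.13, the convertase Pcsk1 by -1.56, the amidating enzyme Pam by -1.03 and chromogranin Chga by -0.80. In the other treatments Scg2 lay between -2.03 and -1.78, Pcsk1 between -2.74 and -2.10 and Pam between -1.17 and -1.04, all called. Chga was called in EA (-0.39) and SEA (-0.34) and not in HT (-0.12, edgeR adjusted p = 0.784). Of the 5 peptide-degrading enzymes only neprilysin, Mme, was called in NC, at 1.85 (list median 0.19). Mme was also called in EA (1.11) and SEA (1.24), and not in HT (1.13, edgeR adjusted p = 0.0966). The other calls were Ece1, an endothelin-converting enzyme, lower in HT (-0.48, edgeR adjusted p = 0.0430) and SEA (-0.31, adjusted p = 0.0143), and the dipeptidyl peptidase Dpp8, higher in EA (0.28, adjusted p = 0.0424). The list's medians were 0.05 in HT, 0.21 in EA and 0.09 in SEA. Of 28 genes of the Gs, Gq and cyclic AMP pathway 8 were higher, 6 lower and 14 not called, with a median of 0.27. The counts were 4 higher and 10 lower in HT (median -0.12), 7 and 9 in EA (-0.09) and 7 and 9 in SEA (-0.16), against medians over all genes of 0.04, 0.00 and 0.01. In NC the adenylyl cyclases Adcy1 and Adcy5 differed by 3.27 and 2.68, the cyclic AMP-activated exchange factor Rapgef4 by 2.16 and the olfactory-type G protein subunit Gnal by 2.09, all called by edgeR (adjusted p from 5.82e-04 to 0.0409). For Adcy1 the NC value was the largest, with 1.79 in EA, 1.60 in SEA and 1.25 in HT, where it was not called (edgeR adjusted p = 0.111). Adcy5 lay between 2.23 and 2.39 in the other treatments, Rapgef4 between 1.90 and 2.10 and Gnal between 1.62 and 1.79, all called.

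Among 9 genes known to respond to cyclic AMP, Nr4a1 (1.25) and Egr1 (1.16) were higher in the CEA of NC rats, Sik1 (-0.54) was lower, and 6 were not called, with a median of 0.44. In HT 3 of the 9 were higher, Egr1 (1.36), Nr4a1 (1.15) and Junb (0.86), and Fos was lower (-1.46, edgeR adjusted p = 0.0129). In EA Junb was higher (0.55), and Nr4a2 (-1.17) and Fos (-0.95, edgeR adjusted p = 0.0258) were lower. In SEA Nr4a1 (1.10) and Junb (0.56) were higher and Nr4a2 (-0.69) was lower. Of the 4 treatments Sik1 was called in NC alone, and Egr1 was not called in EA (0.83) or SEA (0.64), nor Nr4a1 in EA (0.68). With 3 of 9 genes called in NC, EA and SEA each, the list lay near the share over all genes there. The list's medians were 0.65 in HT, 0.55 in EA and 0.36 in SEA. In the comparisons of treatments a single gene of all these lists passed. Junb was lower in the operated PVN by -0.78 (SE 0.12, edgeR adjusted p = 0.0382). It stayed between -0.83 and -0.72 in 17 alternatives, computed after its value was seen, and its call was lost in 12 of them, among them the fit of all 24 libraries (adjusted p = 0.0533), the replicate block (0.0665) and the fit without PVN NC replicate 3 (0.304, the highest). The call was lost on leaving out any single PVN library other than HT replicate 1 and NC replicate 2. In that comparison the 9 genes had a median of -0.54 there, against -0.02 over all genes tested. A lower level after surgery was not particular to the PVN. The list's sum in the CEA ran from 370 to 580 CPM in NC and from 302 to 363 CPM in HT. It was 274 to 383 CPM in CEA EA and 282 to 386 CPM in CEA SEA.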

How the data were processed

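The deposited table holds whole-number gene counts of reads, which the authors made by mapping reads to a rat genome with HISAT2 and counting with featureCounts (versions are not given in the sources used here). The deposited table's gene length column, in bases, was used for RPKM only. The methods name mRatBN7.2, but gene ends on chromosome 1 reach 282724300, past the end of that chromosome there. A stray header line (1) exchanges CEA EA replicates 2 and 3 and was left out. Groups and replicates follow the sample titles. Reads carried no molecular identifiers, and how reads with several places were counted is not given in the sources used here. The labels do not name the rats, so p-values measure the spread between these samples, which may be technical.

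Each comparison was fitted to the libraries of its own groups in edgeR 4.0.16 in R 4.3.3 (robust quasi-likelihood F test, filterByExpr, TMM, two-sided, Benjamini-Hochberg over all genes tested, threshold 0.05). The fit was tried on simulated counts for CEA against PVN in NC and for PVN HT against NC only. That outcome is not reported here. DESeq2 1.42.0 was an alternative. CPM and RPKM were scaled by TMM factors, and correlations used log2 CPM with a prior count of 2 and 100000 permutations (numpy 2.4.6). Likeness was ranked among genes with a mean of at least 1 CPM. The 3 closest genes were named for each member and region, except 1 that is not reported here. From each pathway list up to 4 called genes with the largest changes were named. The members and lists were chosen with earlier results of these data known. The fit over all treatments, the marker relations and the fit without libraries rich in choroid plexus markers (sum over 100 CPM) were added after values were seen.

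Same-numbered libraries deviated together (correlation over 0.1 in all 3 pairs) in NC between regions (0.32, 0.13 and 0.19) and in CEA HT against NC (0.27, 0.19 and 0.35). This comes from the data and not the labels, which pair no libraries. HT and NC rats were different animals, so a number cannot mark a shared rat in CEA HT against NC. What these libraries shared was not tested. In the other pairwise comparisons same-numbered libraries share only a number. The main fits have no block, so their p-values leave any such pairing out.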

Additional observations from a re-analysis of the deposited data

Results flagged for a closer look

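Among the 9 operated PVN libraries, SEA replicate 3 stood apart in Adcyap1r1, at 487 CPM against 431 CPM for the next library and 392 CPM for the lowest. Its gap was 0.581 of the range, over Dixon's critical value for 9 values, and 1 of 8 sets of a gene and a region was past it. Chance alone passes it in about 1 of 20 sets.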

How the results depend on the processing

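Each log2 fold change was recomputed with other size factors, no filter on low counts, DESeq2, the replicate number as a block, all 24 libraries in one fit and each library left out. Adcyap1 kept its call between regions in every alternative of every treatment. Vip lost its call with all libraries in one fit (1.91 in NC, adjusted p = 0.0879; 2.26 in EA, 0.0588) and without the filter (1.92 in NC, 0.111; 2.27 in EA, 0.108), by edgeR. Vipr2 over all treatments lost its call without the filter (0.81, edgeR adjusted p = 0.0756) and with the replicate block (0.66, 0.0851). Adcyap1r1 in operated against NC PVN gained one by DESeq2 (0.29, adjusted p = 0.00889). With totals in place of TMM, r of Adcyap1 and Adcyap1r1 in the PVN was -0.67 (permutation, adjusted p = 0.0600). The replicate block reversed the sign of Vip in operated against NC PVN (-0.0020), of Adcyap1 and Vip in SEA against HT CEA (0.034 and 0.061) and of the regional difference in the HT effect on Vip (-0.35). It changed no other call of a member. Counts over all genes moved by over 1.5 times in HT between regions with all libraries in one fit (6076 against 3523), in PVN EA against HT (36) without the filter (77), with the block (21) and in one fit (0), in operated against NC PVN (10) without the filter (89) and in one fit (1), and in PVN HT against NC (2) without the filter (7) and in one fit (1). Fits without PVN NC replicate 2 called 3506 genes in HT against NC, where the full fit called 2. Of the comparisons with 0 calls, the most in any edgeR fit that kept all libraries was 12, in PVN EA against SEA with the block. The cause of these changes was not tested.

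Ranges over the fits that left out 1 library follow, on the log2 scale, for results whose sign or call changed in at least 1 of them. In CEA against PVN in NC they ran from 1.63 to 2.34 for Vip, -0.70 to -0.54 for Adcyap1r1 and 0.81 to 1.51 for Vipr2. For CEA against PVN in HT the range was 1.31 to 2.57 for Vip and 0.20 to 1.37 for Vipr2. In CEA against PVN in EA the range was 1.42 to 2.63 for Vip and -0.26 to 0.90 for Vipr2. For CEA against PVN in SEA the range was 0.13 to 1.66 for Vip and -0.065 to 1.13 for Vipr2. In PVN HT against NC the range was 0.16 to 0.32 for Adcyap1r1. For PVN EA against HT the range was -0.070 to 0.069 for Adcyap1, -0.089 to 0.48 for Vip and -0.026 to 0.032 for Adcyap1r1. In PVN SEA against HT the range was -0.16 to 0.0031 for Adcyap1. For PVN EA against SEA the range was -0.014 to 0.14 for Adcyap1. In PVN operated against NC the range was -0.12 to 0.10 for Vip and 0.21 to 0.36 for Adcyap1r1. For CEA HT against NC the range was -0.77 to 0.24 for Adcyap1, -0.87 to 0.37 for Vip, -0.12 to 0.027 for Adcyap1r1 and -0.81 to 0.36 for Vipr2. In CEA EA against HT the range was -0.51 to 1.07 for Vip and -1.48 to 0.046 for Vipr2. For CEA SEA against HT the range was -0.62 to 0.40 for Adcyap1, -1.23 to 0.55 for Vip and -1.13 to 0.37 for Vipr2. In CEA EA against SEA the range was -0.34 to 1.58 for Vip, -0.014 to 0.055 for Adcyap1r1 and -1.14 to 0.46 for Vipr2. For CEA operated against NC the range was -0.28 to 0.059 for Adcyap1 and -0.54 to 0.18 for Vip. In the HT effect, CEA minus PVN the range was -0.66 to 0.36 for Adcyap1, -0.64 to 0.61 for Vip and -0.93 to 0.24 for Vipr2. For the EA effect, CEA minus PVN the range was -0.61 to 0.97 for Vip and -1.16 to 0.35 for Vipr2. In CEA against PVN over all treatments the range was 0.58 to 0.90 for Vipr2. Depth limits Adcyap1 in the CEA most, at 6 to 92 counts per library.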
